A study of Mus musculus with 22 samples.

Results

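Fos, Fosb, Junb, Arc, Egr1, Egr2, Egr4, Npas4, Nr4a1 and Dusp1 are 10 immediate early genes whose transcription rises when neurons are active. They were chosen by name, not by their values, and were found by Ensembl identifier among the 39179 gene identifiers counted in each of 22 RNA-sequencing samples. Each had reads in all 22 samples. The samples compared Phf8 knockout (KO) with wild-type (WT) counterparts in embryonic stem cells (ESC, 2 samples per genotype), neural progenitor cells (NPC, 3 per genotype), ventral striatum (STR, 3 per genotype) and prefrontal cortex (PFC, 3 per genotype). All were on a B6x129SvJ background, and the brain tissue was taken at 2 months of age. ESCs came from blastocyst outgrowths kept on gelatin or feeder cells, and NPCs from embryos kept as an adherent monolayer. Phf8 is an X-linked gene for a histone demethylase. The KO allele lacks a pair of neighbouring exons of the catalytic domain. These were flanked by loxP sites and removed by transient Cre expression in clonally grown ESCs that were then used to make mice, so that no tissue-specific promoter decides where the gene is lost. The labels do not say whether replicates came from separate animals or cultures, or whether STR and PFC samples with the same number came from the same mouse, and p-values measure the spread between these samples.

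Immediate early genes are transcribed within minutes of a stimulus without new protein synthesis, by factors already bound at their promoters such as CREB, which binds the cAMP response element (CRE), and SRF, which binds the CArG box. In neurons, calcium entry through synaptic receptors and channels starts this response, and the transcripts are short-lived, so that their levels are widely used as a record of recent activity. Growth factors and serum start much of the same programme in dividing cells. Fos, Fosb and Junb encode subunits of the AP-1 transcription factor. Egr1, Egr2 and Egr4 encode zinc-finger factors, Npas4 a neuron-restricted bHLH-PAS factor and Nr4a1 an orphan nuclear receptor. Arc and Dusp1 are effectors: Arc protein acts at synapses in the trafficking of AMPA receptors, and Dusp1 is a phosphatase that switches off MAP kinases.

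Promoter sequence of 5 of the 10 genes is shown because the motifs of CREB and SRF can be read in it. The sequences are from RefSeq on GRCm38.p6, in windows from 250 bases before to 50 bases after each annotated start, which held 8 of the 10 genes, and letters are given 5′ to 3′ on the strand of the gene. Capitals mark the CRE (TGACGTCA) or its core (TGACG, which the CRE contains), on either strand, and in Egr2 also the CArG box. The Fos stretch (chr12:85473640-85473889, plus strand), the Npas4 stretch (chr19:4989972-4990221, minus strand), the Nr4a1 stretch (chr15:101266596-101266845, plus strand) and the Dusp1 stretch (chr17:26508473-26508722, minus strand) each hold the 250 bases before the start. The Egr2 stretch (chr10:67537793-67537822, plus strand) holds 30 bases.
Fos: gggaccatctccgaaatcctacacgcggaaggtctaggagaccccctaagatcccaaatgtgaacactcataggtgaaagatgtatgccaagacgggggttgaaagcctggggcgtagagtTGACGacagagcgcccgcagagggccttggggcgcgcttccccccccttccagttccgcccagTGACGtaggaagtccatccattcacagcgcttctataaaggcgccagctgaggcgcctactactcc
Npas4: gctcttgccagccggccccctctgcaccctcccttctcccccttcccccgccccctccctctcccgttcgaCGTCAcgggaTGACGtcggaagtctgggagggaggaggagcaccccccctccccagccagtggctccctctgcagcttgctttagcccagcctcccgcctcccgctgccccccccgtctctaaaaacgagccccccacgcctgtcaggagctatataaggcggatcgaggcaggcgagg
Nr4a1: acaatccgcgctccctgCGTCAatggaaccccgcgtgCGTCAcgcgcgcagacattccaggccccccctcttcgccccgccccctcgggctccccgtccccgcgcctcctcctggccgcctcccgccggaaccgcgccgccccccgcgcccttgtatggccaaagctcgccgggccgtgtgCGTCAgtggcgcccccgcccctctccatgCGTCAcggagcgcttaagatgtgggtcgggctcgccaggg
Dusp1: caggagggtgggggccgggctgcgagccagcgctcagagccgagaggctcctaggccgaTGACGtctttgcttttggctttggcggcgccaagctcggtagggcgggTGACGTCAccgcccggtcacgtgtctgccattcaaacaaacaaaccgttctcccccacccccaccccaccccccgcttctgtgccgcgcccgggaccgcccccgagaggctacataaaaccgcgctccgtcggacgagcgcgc
Egr2: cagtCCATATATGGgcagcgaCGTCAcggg

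The CRE core was present in at least 1 window of all 8 genes that have one, against 23.05% of the 27025 mouse genes with a window. Counted by window, the core was in 10 of the 12 windows of these genes and in 20.81% of all 32851 windows. Several of those 10 are overlapping windows of Egr2 that hold the same copies of the core, so they are not separate sites. It lay 129 and 66 bases before the start in Fos, 179 and 169 bases before it in Npas4, and at 4 places in Nr4a1, the nearest 40 bases before the start. The full CRE was found in Dusp1, 143 bases before its start, and in 2.03% of all genes. The CArG box was found in Egr2, 72 bases before the start, against 1.81% of all genes. The EGR site GCGGGGGCG, searched on both strands, was found in Fosb and Nr4a1, against 3.31% of all genes. A match describes these letters in these windows and does not show that a factor was bound.

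Totals of reads assigned to genes ran from 11455757 to 13657534 in ESC, from 11798544 to 15539811 in NPC, from 7159094 to 8594441 in STR and from 5898286 to 10148073 in PFC. Phf8 itself stood at 63.2 to 71.2 CPM (read counts scaled to a common library total) in WT and 16.5 to 22.3 CPM in KO ESC, and at 38.5 to 49.6 CPM in WT and 13.4 to 20.6 CPM in KO brain samples, with reads from the exons that remain included. The labelled cell types carried their markers. Summed pluripotency markers reached 3425 to 4129 CPM in ESC and at most 6.06 CPM elsewhere, neural progenitor markers 4504 to 6085 CPM in NPC, striatal projection neuron markers 1019 to 1389 CPM in STR against 142 to 170.4 CPM in PFC, and excitatory cortical markers 754 to 964 CPM in PFC. A few samples stood apart. In the STR summed hypothalamic markers were at 202.5, 35.3 and 25.6 CPM in KO 1, 2 and 3 and at 15.6 to 18.6 CPM in the WT samples, so that all KO samples were above all WT samples and KO 1 was far above. STR KO 1 also had 64.0 CPM of excitatory cortical markers against 320.4 to 492 CPM in the other STR samples. ESC WT 2 and KO 2 had 3615 and 4396 CPM of feeder fibroblast markers against 164 and 154 CPM in WT 1 and KO 1. NPC WT 2 and KO 2 had 38.4 and 161 CPM of oligodendrocyte markers against 1315 to 2266 CPM in the other NPC samples.

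The AP-1 genes were high in ESC and varied between the samples of each brain region. Fos (ENSMUSG00000021250, GRCm38 chromosome 12, 85473890 to 85477273, plus strand) stood at 57.4, 29.9 and 68.2 CPM in the 3 WT and at 45.5, 51.9 and 17.7 CPM in the 3 KO samples of the STR, in the order of their numbers. In the PFC the WT samples gave 98.5, 49.0 and 110.3 CPM and the KO samples 97.5, 101 and 43.4 CPM. WT 2 and KO 3 were the lowest of their genotype in both regions, and the genotypes overlapped. Fos reached 388 and 511 CPM in WT and 369.8 and 417 CPM in KO ESC, and ranged from 55.4 to 104 CPM in NPC. Bulk tissue gives no view of single cells, so that fewer cells with a transcript and less transcript per cell cannot be told apart here.

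Fosb (ENSMUSG00000003545, chromosome 7, 19302696 to 19310051, minus strand), whose truncated product accumulates with repeated stimulation, followed a different order from Fos in the brain samples. Its levels in the STR were 79.5, 38.7 and 48.4 CPM in WT and 29.6, 42.4 and 29.0 CPM in KO samples. The PFC levels were 119, 42.5 and 63.1 CPM in WT and 66.7, 50.6 and 41.9 CPM in KO samples. WT 1 was the highest sample in both regions. Fosb was at 201.6 to 299 CPM in ESC and at 3.91 to 10.1 CPM in NPC, the lowest in any tissue. Junb (ENSMUSG00000052837, chromosome 8, 84974484 to 84978718, minus strand) partners the Fos proteins. It was measured at 105, 71.8 and 122 CPM in WT and 80.0, 102 and 58.2 CPM in KO STR, and at 124, 76.5 and 144 CPM in WT and 129, 123 and 69.8 CPM in KO PFC. KO 3 was the lowest sample of each region. Junb ranged from 68.9 to 129.9 CPM in ESC and from 14.4 to 28.5 CPM in NPC. The gene overlaps Prdx2 on the opposite strand, and the library kit does not mark strand, so that reads shared by both cannot be told apart.

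The Egr genes fell into a steady and a variable kind in brain tissue. Egr1 (ENSMUSG00000038418, chromosome 18, 34859823 to 34864984, plus strand), which neurons express at rest as well as after activity, gave 203, 205 and 231 CPM in WT and 156, 209 and 158 CPM in KO STR. In the PFC it gave 305, 272 and 399 CPM in WT and 339, 327 and 275 CPM in KO samples. Its highest sample was 1.48 times the lowest in the STR and 1.47 times the lowest in the PFC. Egr2 (ENSMUSG00000037868, chromosome 10, 67535475 to 67542188, plus strand) was by its mean the least abundant member per length in both regions and varied far more. Its levels were 19.1, 5.58 and 19.7 CPM in WT and 12.02, 15.0 and 4.55 CPM in KO STR, where the highest sample was 4.33 times the lowest. In the PFC they were 31.5, 14.8 and 38.9 CPM in WT and 38.8, 28.7 and 13.2 CPM in KO samples. WT 2 and KO 3 stood apart from the other samples in both regions. Egr4 (ENSMUSG00000071341, chromosome 6, 85511121 to 85513589, minus strand) reached 68.4, 50.4 and 70.3 CPM in WT and 36.7, 61.3 and 38.9 CPM in KO STR, and 82.6, 60.3 and 85.7 CPM in WT and 78.2, 82.2 and 57.0 CPM in KO PFC. It was steadier than Egr2, and WT 2 and KO 3 were its lowest samples in the PFC.

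In the cultured cells Egr1 and Egr2 divided the ESC samples by number and not by genotype. Egr1 stood at 195 and 737 CPM in WT 1 and 2 and at 187 and 748 CPM in KO 1 and 2. Egr2 showed the same split, with 8.44 and 22.4 CPM in WT and 5.49 and 24.5 CPM in KO samples. Both samples numbered 2 were high, and they are the samples with high feeder fibroblast markers; the part of those cells in the levels was not tested. NPC levels of Egr1 ran from 178 to 340.4 CPM and those of Egr2 from 9.42 to 19.5 CPM. Egr4 was at 1.17 to 3.76 CPM in ESC and at 2.13 to 6.73 CPM in NPC.

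Npas4, the member most restricted to neurons, was almost silent in the cultures and had the widest range in the STR. Npas4 (ENSMUSG00000045903, chromosome 19, 4984355 to 4990316, minus strand) had 7 to 12 reads per sample in ESC and 5 to 28 reads in NPC. Its STR levels were 44.7, 21.3 and 39.1 CPM in WT and 30.4, 40.9 and 5.43 CPM in KO samples, with the highest 8.24 times the lowest. Its PFC levels were 62.6, 40.9 and 62.5 CPM in WT and 84.6, 79.5 and 22.7 CPM in KO samples. KO 3 was the lowest sample of both regions, while KO 1 and KO 2 were the highest in the PFC. Nr4a1 (ENSMUSG00000023034, chromosome 15, 101254269 to 101274795, plus strand) gave 125, 69.1 and 134 CPM in WT and 78.1, 113 and 53.8 CPM in KO STR, and 182, 103 and 200.1 CPM in WT and 178, 173 and 98.7 CPM in KO PFC. It ranged from 63.6 to 93.1 CPM in ESC and from 23.7 to 35.6 CPM in NPC.

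The effector Arc was by its mean the most abundant member per length in the PFC. Arc (ENSMUSG00000022602, chromosome 15, 74669083 to 74672570, minus strand) stood at 311, 163 and 395 CPM in WT and 327, 313 and 100.1 CPM in KO PFC, where the highest sample was 3.95 times the lowest. The STR levels were 179, 87.7 and 185 CPM in WT and 107, 149 and 55.6 CPM in KO samples. WT 2 and KO 3 were again the low samples in both regions. Arc was steady in ESC at 82.6 to 92.5 CPM and ranged from 14.2 to 48.2 CPM in NPC. Dusp1 (ENSMUSG00000024190, chromosome 17, 26505590 to 26562128, minus strand), which overlaps Ergic1 and Gm8225 on the opposite strand, had levels of 52.5, 31.6 and 53.5 CPM in WT and 38.4, 43.3 and 28.3 CPM in KO STR. Its PFC levels were 92.5, 47.5 and 99.5 CPM in WT and 91.0, 93.6 and 39.1 CPM in KO samples. The same samples were low. Dusp1 ranged from 117 to 171 CPM in ESC and from 15.6 to 29.4 CPM in NPC.

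**Figure D1:**
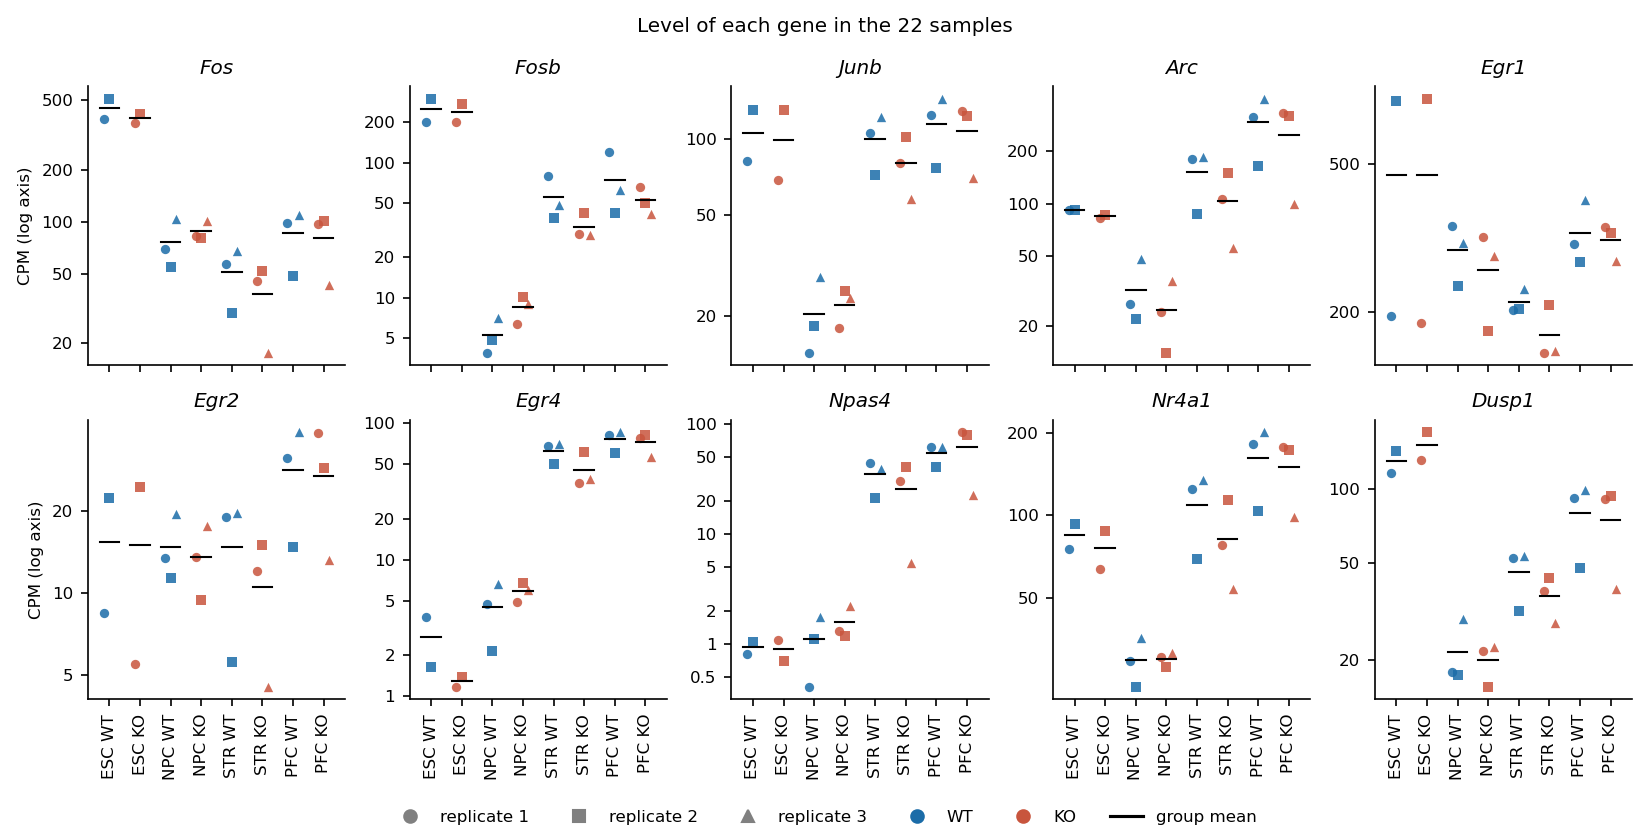
Level of each of the 10 genes (CPM, log axis) in the 22 samples, by tissue and genotype; the marker shape gives the replicate number, the colour the genotype and the line the group mean. In the STR and PFC, WT 2 and KO 3 lie below the other samples of their genotype for Fos, Junb, Arc, Egr2, Npas4, Nr4a1 and Dusp1, and Npas4 is at most 2.21 CPM in ESC and NPC.

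Levels per gene length (RPKM, the CPM divided by exon length in kilobases, as mean ± SD over both genotypes) did not put the same member first in every tissue. Fos led in ESC at 179 ± 26.7 RPKM (n = 4), Egr1 in NPC at 61.8 ± 13.4 RPKM (n = 6), and Arc in PFC at 87.7 ± 36.6 RPKM (n = 6). In STR Egr1 and Arc were first at mean levels of 43.1 and 41.5 RPKM. In both brain regions the range of each member overlapped that of its neighbour in this order. These ranges do not compare members within a sample. Because the members rose and fell together across samples, overlap does not show that neighbouring levels were alike. In ESC the order Fosb, Arc, Nr4a1 and Egr2 was free of overlap, as was that of Egr4 and Npas4. In NPC Fos lay above Arc, and Fosb above Npas4, in all samples. Npas4 was last in both cultures, at 0.219 RPKM in ESC and 0.322 RPKM in NPC, and Egr2 was last in both brain regions.

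Most of the immediate early genes varied between samples of 1 genotype more than nearly all other genes of the PFC did. The biological coefficient of variation (BCV), the spread between replicates left after counting error, had a median of 37.6% over the 10 members in the PFC and 8.71% over the 15364 genes tested. Arc had a BCV of 48.1%, Npas4 of 45.4% and Egr2 of 44.1%. Altogether 8 of 10 members lay in the top 5% of all PFC genes. Egr4 at 13.4% and Egr1 at 11.6% were the exceptions. In the STR the median BCV was 26.4% over the members and 10.8% over all genes, and 5 of 10 members were in the top 5%: Npas4 at 55.1%, Egr2 at 48.3%, Fos at 38.2%, Arc at 35.1% and Nr4a1 at 28.7%. Spread depends on level, and for their level all 10 members exceeded the value fitted for genes of like abundance, by 1.498 to 6.27 times in the PFC and 1.27 to 4.82 times in the STR.

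**Figure D2:**
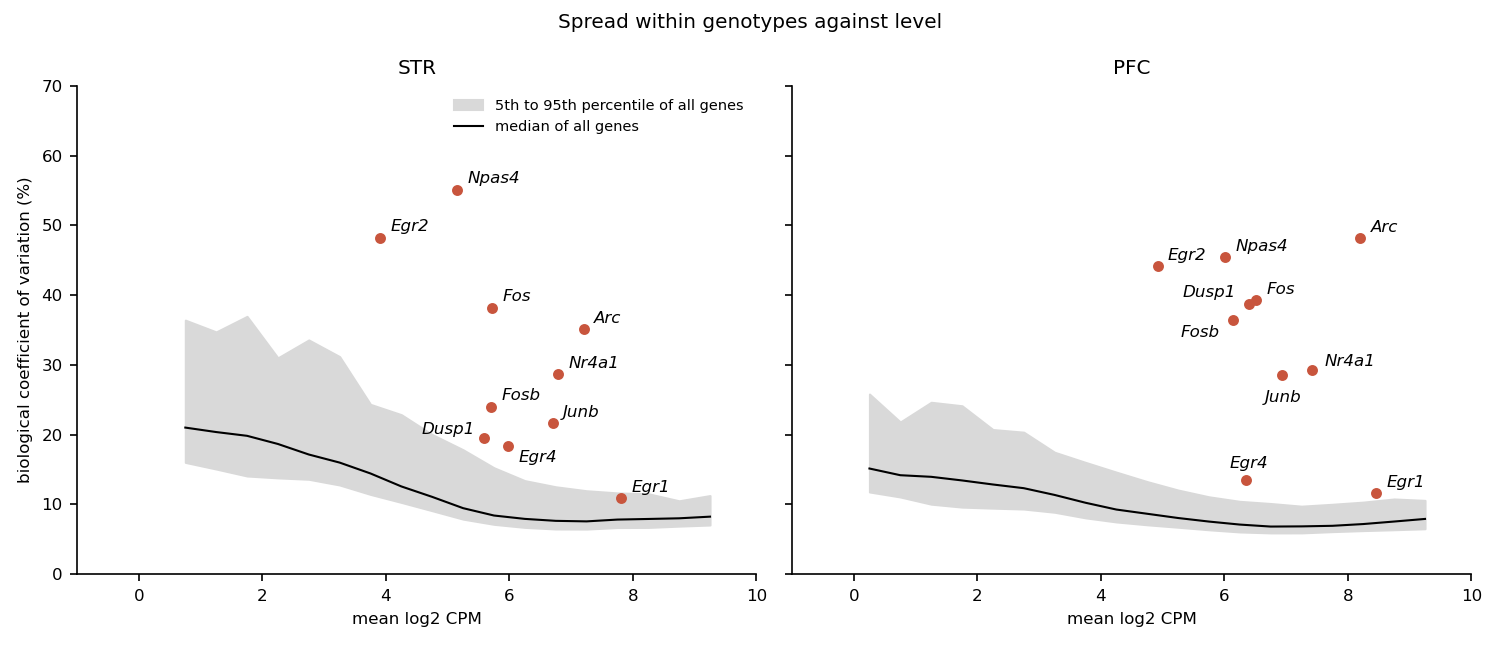
Biological coefficient of variation within genotypes (%) against mean level (log2 CPM) in STR and PFC, with the 10 genes as points, the median of all genes as a line and the range from the 5th to the 95th percentile in grey. In the PFC every gene but Egr1 and Egr4 sits at 28.6% or more, while Egr1 lies close to the grey range.

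In the cultures the members were closer to other genes in their spread. The median BCV was 26.2% over the members and 16.5% over all genes in NPC, where 0 of 10 were in the top 5%. In ESC the medians were 29.2% and 24.5%. Egr1 at 70.8% and Egr2 at 68.2% were the members in the top 5% there, and these are the genes that differed most between samples 1 and 2 of both genotypes. Fos, Fosb and Junb were also higher in sample 2 of both genotypes. Junb stood at 81.7 and 129.9 CPM in WT 1 and 2 and at 68.9 and 129 CPM in KO 1 and 2.

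In the brain regions the members rose and fell together across samples. With the genotype means removed, the median Pearson correlation over the 45 pairs of members was 0.930 in the PFC, and 77.8% of pairs exceeded 0.8 against 7.34% of all gene pairs. The highest pair was Fos with Dusp1 (r = 0.998), and the lowest was Fosb with Egr1 (r = 0.302). In the STR the median was 0.831, with 53.3% of pairs over 0.8 against 6.01% of all gene pairs, and Fosb with Egr1 was again lowest (r = 0.359). The points are 6 samples of 1 tissue, each with its own library. In NPC the median was 0.587, with 28.9% of pairs over 0.8 against 9.84% of all gene pairs; Arc and Egr2 were closest (r = 0.999) and Fosb and Egr1 lowest (r = -0.484). With 4 samples in ESC, 57.8% of member pairs exceeded 0.8 against 30.3% of all pairs, but 29 of 45 member pairs were positive and the lowest, Fos with Egr4, had r = -0.820.

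**Figure D3:**
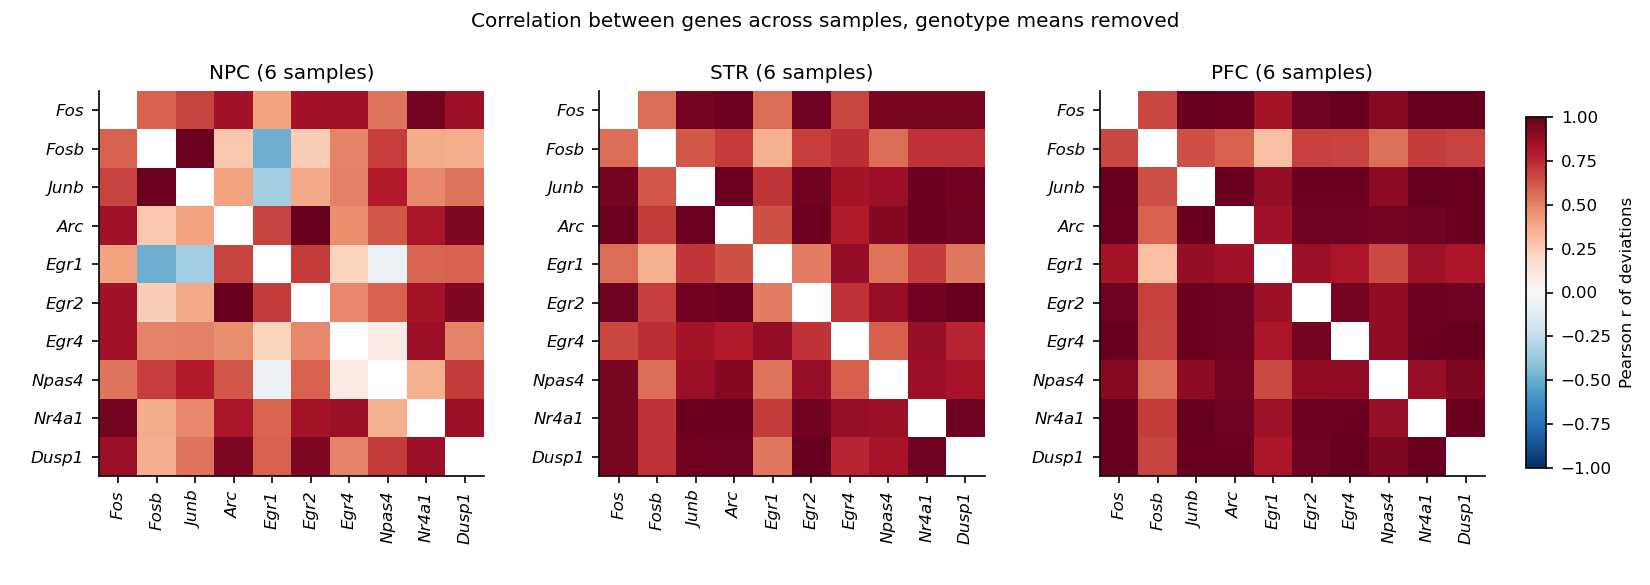
Pearson correlation of each pair of genes over the 6 samples of NPC, STR and PFC, computed on log2 CPM with the genotype means removed and shown by colour from -1 to 1. The PFC panel is red throughout, with the palest cells in the Fosb row, and the NPC panel holds the negative pairs of Fosb and Junb with Egr1.

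Fos served as the reference member, and its log2 CPM was correlated with that of the 9 other members in NPC, STR and PFC, which makes 27 relations. Two-sided exact permutation tests over 6 samples cannot give a p below 0.001389. In the PFC 8 of 9 members correlated with Fos at a Benjamini-Hochberg adjusted p under 0.05. Dusp1 was closest (r = 0.998, exact permutation adjusted p = 0.00625, rho = 1, adjusted p of rho = 0.0125), followed by Egr4 (r = 0.996), Nr4a1 (r = 0.995) and Junb (r = 0.994). Fosb missed the threshold (r = 0.654, exact permutation adjusted p = 0.192). Without PFC WT 2 and KO 3, the samples farthest from the median of Fos, r was 0.84 to 0.99 for Junb, Arc, Egr1, Egr4, Nr4a1 and Dusp1. It was 0.32 for Egr2, -0.53 for Npas4 and -0.36 for Fosb, so that for these members the relation in the PFC rested on those samples. By rank 1 of 9 members, Dusp1, passed in the PFC.

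In the STR 6 of 9 members passed, among them Arc (r = 0.977), Egr2 (r = 0.967), Junb (r = 0.963), Npas4 (r = 0.953), Nr4a1 (r = 0.949) and Dusp1 (r = 0.949). Junb, Arc, Egr2, Nr4a1 and Dusp1 ordered the 6 samples exactly as Fos did (rho = 1, exact permutation adjusted p = 0.0125). The relations of Egr4, Fosb and Egr1 did not pass, with r of 0.712, 0.634 and 0.632. Without STR WT 2 and KO 3, r was 0.58 to 0.96 over the 9 members. In NPC Nr4a1 (r = 0.916, exact permutation adjusted p = 0.025) and Egr4 (r = 0.871, exact permutation adjusted p = 0.0469) passed, and by rank 0 of 9 did. Same-numbered KO and WT samples of NPC deviated together (r = 0.520 to 0.692 in 3 pairs, over all genes), which these permutations do not take into account, so that the NPC p-values may be too small.

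The level of these genes in an STR sample went with their level in the PFC sample of the same genotype and number. WT 2 and KO 3 were low in both regions. Across the 6 same-numbered pairs, with genotype means removed, r was 0.992 for Fos, 0.984 for Npas4, 0.954 for Dusp1 and 0.943 for Arc. The members had a median r of 0.935 against 0.354 over the 14954 genes tested in both regions, and 70% of members exceeded 0.8 against 11.6% of those genes. Fosb (0.774), Egr4 (0.694) and Egr1 (0.471) were below that mark. The median over the members stayed between 0.880 and 0.990 when any 1 pair was left out. Each of those sets still held WT 2 or KO 3, the low samples of both regions. The relation with both of these pairs left out was not computed. The numbers also paired the regions beyond these genes, since over all genes the deviations of same-numbered samples correlated in all 6 pairs (r = 0.166 to 0.415, mean 0.264).

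**Figure D4:**
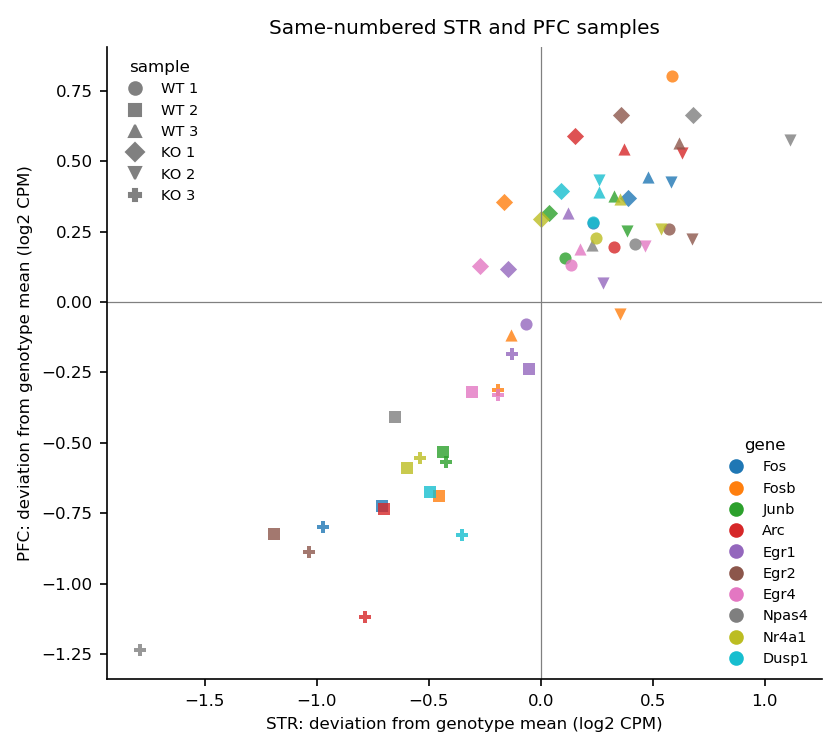
Deviation of each gene from its genotype mean in an STR sample (horizontal, log2 CPM) against its deviation in the PFC sample of the same genotype and number (vertical, log2 CPM); colour gives the gene and shape the sample. The points of WT 2 and KO 3 lie at or below zero on both axes for all 10 genes.

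PFC KO 3 was the lowest of the 6 PFC samples in 9 of 10 members, all but Egr1, whereas 17.2% of all genes were lowest there. STR KO 3 was the lowest of the 6 STR samples in 8 of 10 members, all but Egr1 and Egr4, whereas 17.8% of all genes were lowest there. The sum of neuron markers was 1817 CPM in PFC KO 3 and 1525 CPM in STR KO 3, within a range of 1425 to 1988 CPM in the PFC and at the top of 1269 to 1525 CPM in the STR. PFC WT 2 had the lowest sum of neuron markers of its region at 1425 CPM, of excitatory cortical markers at 754 CPM and of heat shock genes at 986 CPM. STR WT 2 had 1470 CPM of neuron markers, above the other WT samples. Its sum of excitatory cortical markers, 492 CPM, was the highest of the 6 STR samples. The part of cell makeup in the low levels of these 4 samples was not tested. Total reads were the highest of the region in PFC WT 2 (10148073) and the lowest in STR KO 3 (7159094), and lay between in PFC KO 3 (7534883) and STR WT 2 (7520821).

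None of the 10 immediate early genes passed the test between KO and WT in any tissue when samples were not blocked by number. The study asked which transcripts change when Phf8 is lost, in cells and in brain regions tied to stress behaviour. In the PFC, where 0.638% of 15364 genes tested passed edgeR's quasi-likelihood test at an FDR under 0.05, 0 of 10 members did, and 0 of 10 had an unadjusted p under 0.05 (1725 of all genes had). DESeq2 called 196 genes and 0 members. The log2 fold changes of KO over WT ran from -0.51 (SE 0.45) for Fosb to 0.18 (SE 0.53) for Npas4, with edgeR FDRs of 0.777 to 0.989. Fos had -0.08 (SE 0.47), Arc -0.24 (SE 0.58) and Egr1 -0.06 (SE 0.13). The standard errors mark what could be seen: a gene as steady as Egr1 was held to a narrower interval than Arc, Npas4 or Egr2. The median over the members was -0.08 against -0.02 over all genes, with 9 of 10 below 0. That sign rested on single samples, since 9 of 10 members were above 0 without KO 3 (median 0.14) or without WT 3 (median 0.11), and 10 of 10 were below 0 without WT 2 (median -0.36). KO and WT samples were free of overlap in 0 of 10 members and in 17.1% of all genes. In the PFC astrocyte markers (596.6 to 626 CPM in KO, 669.6 to 706 CPM in WT), oligodendrocyte markers (1103 to 1173 CPM in KO, 1322 to 1774 CPM in WT) and blood markers (37.5 to 38.5 CPM in KO, 45.3 to 61.6 CPM in WT) were lower in every KO than in every WT sample, and their part in the member values was not tested.

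In the STR all 10 members had lower means in KO than in WT samples, and 0 of 10 passed, where 0% of 15476 genes tested did in edgeR and DESeq2 called 53 genes and 0 members. The targeted gene Phf8 did not pass in the STR either (log2 fold change -1.37, SE 0.15, edgeR FDR 0.0956). The median log2 fold change was -0.42 over the members and 0.00 over all genes. Fosb had -0.72 (SE 0.29, unadjusted p = 0.0420 in edgeR, FDR 0.561) and Egr1 -0.28 (SE 0.12, unadjusted p = 0.0484 in edgeR, FDR 0.571), the members with an unadjusted p under 0.05 among 1346 such genes. Arc had -0.52 (SE 0.41), Egr4 -0.46 (SE 0.22) and Npas4 -0.43 (SE 0.62). KO and WT samples overlapped in all 10 members, as against 13.1% of all genes that did not overlap. Without KO 3 the median was -0.17, and it ranged to -0.73 without KO 2. Marker sums of other cell types also differed by genotype in the STR: besides the hypothalamic markers, astrocyte markers (621.5 to 662 CPM in KO, 584 to 613 CPM in WT) and choroid plexus markers (73.5 to 87.7 CPM in KO, 64.5 to 72.8 CPM in WT) were higher in every KO than in every WT sample, and their part in the member values was not tested. Without KO 1, which had the most hypothalamic markers, the median over the members was -0.46 and 10 of 10 were below 0. Whether the genotype difference itself differed between regions was tested by an interaction term, which 0.00624% of 16028 genes passed and 0 of 10 members did. The interaction was positive for all 10 members (0.24 to 0.63 on the log2 scale, PFC minus STR), with edgeR FDRs of 0.957 to 1, unadjusted p under 0.05 in 0 members and 1027 of all genes, and 19 genes and 0 members called by DESeq2. The members rose and fell together, so these shared signs, like those in the STR, are not 10 separate observations. The median interaction was 0.32, and ranged from 0.05 without PFC WT 2 (7 of 10 positive) to 0.62 without STR KO 2.

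In NPC Fosb had the largest difference, with a log2 fold change of 0.70 (SE 0.29, unadjusted p = 0.0478 in edgeR, FDR 0.9998), followed by Npas4 at 0.51 (SE 0.54) and Arc at -0.38 (SE 0.42). Again 0 of 10 members passed, where 0.00697% of 14351 genes did, that is Phf8 alone. Only Fosb among the members had an unadjusted p under 0.05, against 435 of all genes, and DESeq2 called 5 genes and 0 members. KO and WT samples were free of overlap in 0 of 10 members and in 8.27% of all genes. With 6 members above 0 and 4 below, the median was 0.08, and 0.31 without WT 3. In ESC 0 of 10 members passed, where 0% of 15080 genes did and 171 genes, 0 of them members, had an unadjusted p under 0.05. Phf8 itself did not pass in edgeR in ESC either (log2 fold change -1.79, SE 0.22). DESeq2 called 3 genes and 0 members. Among the members Egr4 had the largest difference at -1.06 (SE 0.53, edgeR FDR 1) on 13 to 37 reads per sample. Egr1 had a difference of 0.02 (SE 1.09) and Egr2 of -0.02 (SE 1), the widest errors of any member, because samples 1 and 2 of each genotype were far apart. The same numbers deviated together in ESC (r = 0.865), and a fit that took the number as a block let Fos (-0.19, FDR 0.0165 in edgeR) and Dusp1 (0.21, FDR 0.0195 in edgeR) pass, among 513 genes, on 1 residual degree of freedom and from 2 pairs.

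**Figure D5:**
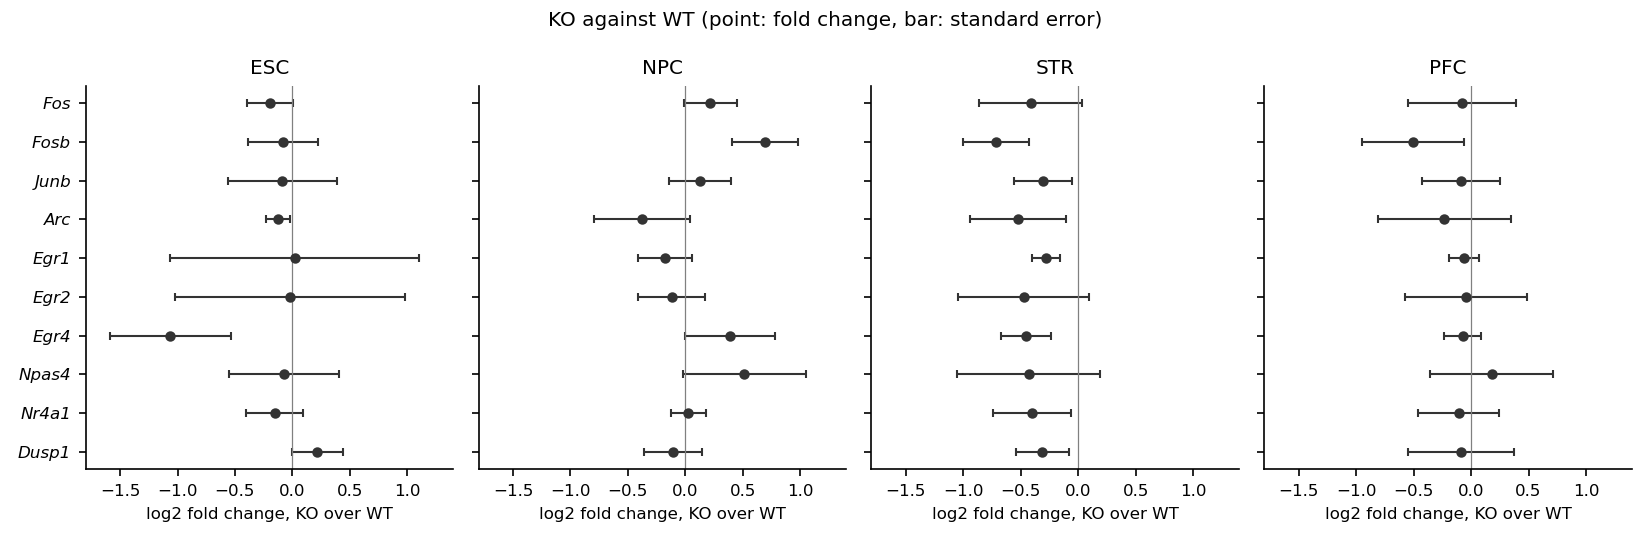
Log2 fold change of KO over WT for each gene in ESC, NPC, STR and PFC, with its standard error as a bar from edgeR. All 10 points lie left of zero in the STR and within 0.24 of it in the PFC except Fosb, and the widest bars are those of Egr1 and Egr2 in ESC.

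Most of the immediate early genes were higher in the PFC than in the STR. With genotype as a covariate, 7 of 10 members passed in edgeR, all higher in the PFC, where 40.2% of 16028 genes passed in either direction (3204 higher and 3234 lower in the PFC). Egr1 had the firmest difference, 1.64-fold higher (log2 fold change 0.71, SE 0.11, edgeR FDR 7.3e-05). Egr2 was 2.14-fold higher, Arc 2.10-fold, Dusp1 1.84-fold, Fos 1.82-fold, Nr4a1 1.62-fold and Egr4 1.36-fold. Npas4, 1.91-fold in the fit, Fosb, 1.43-fold, and Junb, 1.22-fold, did not pass, with edgeR FDRs of 0.0953, 0.144 and 0.323. The median log2 fold change was 0.79 over the members and -0.02 over all genes.

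Because same-numbered samples of the regions deviated together, the number was also used as a block. All 10 members then passed among 7125 genes, with edgeR FDRs from 3.1e-06 for Fos to 0.00628 for Fosb. Junb had an FDR of 0.00528 and Npas4 of 9.8e-04 in that edgeR fit. The median BCV of the members fell from 30.0% to 10.9% when the pairs were accounted for. Without the block, leaving out 1 sample gave 2 to 8 members. Egr1 and Dusp1 passed in every one of those fits. They were the only members to pass without STR WT 2, STR KO 1, STR KO 3, PFC WT 3, PFC KO 1 or PFC KO 2, and Arc joined them without PFC WT 1. With the region samples paired in the interaction fit, 12 genes and 0 members passed.

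Between the cultures 7 of 10 members passed, 6 lower and 1 higher in NPC than in ESC, where 82.3% of 16612 genes passed in either direction. Fosb was 33.99-fold lower in NPC (log2 fold change -5.09, SE 0.25, edgeR FDR 5.0e-08). Dusp1 was 6.36-fold lower, Fos 4.83-fold, Junb 4.52-fold, Arc 2.92-fold and Nr4a1 2.53-fold, and Egr4 was higher in NPC (log2 fold change 1.498, SE 0.42, edgeR FDR 0.00754). Egr1 at -0.68, Egr2 at -0.02 and Npas4 at 0.62 did not pass, with edgeR FDRs of 0.173, 0.962 and 0.179. Read shares with more than 1 genomic match were 43.2 to 45.5% in ESC and 33.2 to 34.3% in NPC, against 7.62 to 8.90% in brain samples. The names of the culture tables mark them as counted without strand and those of the brain tables carry no such mark, and cultures and brain tissue were not tested against each other.

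The 4 lists of related genes gave context for the members. Of the further rapid primary response genes, 36 of 38 matched and were tested. In the PFC against the STR 15 of them were higher and 2 lower (47.2% against 40.2% of all genes). Those higher included the transcription factor genes Egr3 (log2 fold change 0.82), Nr4a3 (0.55), Klf6 (0.84), Klf10 (1.18), Csrnp1 (0.84) and Crem (0.57). The MAP kinase phosphatase genes Dusp4 (0.95), Dusp5 (0.98) and Dusp6 (1.01) were higher too, as were Ier2 (1.78), Ier5 (0.97), Trib1 (1.52), Plk3 (1.04), the prostaglandin synthase gene Ptgs2 (1.72) and the synaptic scaffold gene Homer1 (0.63). Atf3 (-1.997), a stress-responsive factor, and Rgs2 (-0.61), a regulator of G protein signalling, were lower. Of the 16 delayed activity-regulated neuronal genes 8 were higher and 1 lower (56.25% against 40.2% of all genes). The neurotrophin gene Bdnf (1.84) and Nrn1 (1.57) led, with Nptx1 (1.21), Cort (1.20), Pcsk1 (1.17), Nptx2 (0.89), Rasgrp1 (0.26) and Syt4 (0.23), and the secretogranin gene Scg2 (-0.68) was lower.

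Regulators upstream of the immediate early genes showed no common direction between regions. Of 21 tested, 3 were higher in the PFC, Mef2c (1.19), Elk4 (0.58) and Camk2a (0.28), and 5 were lower, Rps6ka5 (-0.87), Ets2 (-0.39), Crtc2 (-0.22), Map2k1 (-0.21) and Mapk3 (-0.21), all on the log2 scale. That was 38.1% of the list, near the 40.2% of all genes. The 11 heat shock genes, which respond to stress on cells and tissue, had Hspa1b (0.64), Hspa1a (0.52) and Dnajb1 (0.31) higher and Hspe1 (-0.27) lower, 36.4% of the list and again near the share of all genes. Hspa1a and Hspa1b are near-identical copies, and reads with several matches were not assigned to either gene.

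Between KO and WT 0 genes of these lists passed in edgeR in the STR or the PFC. In the STR the median log2 fold change was -0.23 over the rapid genes, of which 7 of 36 (19.4%) had an unadjusted p under 0.05, and -0.20 over the delayed genes, of which 4 of 16 (25%) had, against 1346 of 15476 genes in all (8.7%). Those delayed genes were Bdnf, Nptx2 and Nrn1, which were also higher in the PFC than in the STR, and Kcna1, which was not. STR KO 1 had 64.0 CPM of excitatory cortical markers against 320.4 to 492 CPM in the other STR samples. The part of tissue makeup in these list values was not tested. Atf3 at -1.07 and Ptgs2 at -0.73 were the rapid genes of largest difference there, and Cort at -0.97 and Bdnf at -0.97 (SE 0.29, edgeR FDR 0.434) the delayed genes. The medians of the upstream regulators and heat shock genes were -0.02 and 0.04, with 1 of 21 and 1 of 11 at an unadjusted p under 0.05, and their largest differences were 0.28 for Rps6ka1, -0.25 for Elk4, and 0.45 for both Hspa1b and Hspa1a. In the PFC the 4 medians were -0.09, -0.07, 0.06 and -0.02 in the same order, and 1 of 36, 2 of 16, 2 of 21 and 0 of 11 had an unadjusted p under 0.05, against 11.2% of all genes. Zfp36 (-0.52) and Klf2 (-0.50) had the largest differences among the rapid genes, Inhba (-0.52) and Acan (-0.47) among the delayed genes, Elk4 (-0.25) and Crebbp (0.21) among the regulators and Hspb1 (0.24) and Bag3 (-0.14) among the heat shock genes.

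The genes whose pattern was most like that of the members were found by correlating each gene's deviations from its region and genotype means with the mean standardized deviation of the 10 members, over the 12 brain samples. The 10 closest of 14944 genes were Arl4d (r = 0.983), Gm8730 (0.972), Btg2 (0.963), Parp9 (0.963), Sik1 (0.954), Gadd45g (0.951), 1700016P03Rik (0.946), Zfp35 (0.946), Mcl1 (0.945) and Irf2bp2 (0.944). Btg2, an antiproliferative gene, Sik1, a salt-inducible kinase, Gadd45g, a stress-response gene, and Mcl1, an anti-apoptotic gene, are on the list of rapid primary response genes. In all 11 of 36 rapid genes were among the top 100 of the 14944 genes. The other 7 were Ier2, Klf2, Dusp5, Per1, Trib1, Atf3 and Tiparp. The top 100 also held 0 of 16 delayed genes, 0 of 21 upstream regulators and 0 of 11 heat shock genes. For lists of these sizes, 0 is near the share of 100 in 14944 genes and sets them apart from no other genes. The heat shock genes Bag3, Dnajb1 and Hspa1a ranked 224, 322 and 335, below that cut but near the top of the 14944 genes. Over the heat shock genes r ran from 0.12 for Hsp90ab1 to 0.74 for Bag3. Not every rapid gene moved with the members: r was 0.26 for Egr3, of the same family as Egr1, and -0.76 for Klf6. Of the 10 closest genes 5 had a promoter window, and the CRE core was in those of Arl4d, Btg2 and Mcl1, with the full CRE in Arl4d and Btg2.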

How the data were processed

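RNA was sequenced from 22 samples with the Illumina TruSeq RNA kit. The authors used STAR for alignment to GRCm38 (mm10) and HTSeq with Ensembl release 75 for the deposited counts per gene; the submitters' processing notes also name CASAVA 1.7. Culture tables are marked as counted without strand; the setting for brain tables, and how the tissue was collected, are not given in the sources used here. Of 39179 gene identifiers, 37607 matched GENCODE M21, with 99.709% of counts. Rows naming no gene, such as reads without a feature or with several matches, were left out of library sizes.

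CPM used TMM factors (edgeR 4.0.16, R 4.3.3) over all 22 samples, and log2 CPM a prior count of 0.5; RPKM used exon length. Each comparison was a robust quasi-likelihood test in edgeR after filterByExpr, on its own samples, with Benjamini-Hochberg adjustment over all genes tested and a threshold of FDR under 0.05. Correlations were tested by exact permutation (scipy 1.17.1). Alternatives were DESeq2 1.42.0, RLE size factors, edgeR's exact test, other filters, the replicate number as a block and leaving out each sample. The edgeR tests were also run on simulated counts with known changes, drawn at the spread fitted for genes of like abundance. The members exceeded that spread in both brain regions, so the simulation does not show which changes could be seen in them.

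The members and lists were chosen with earlier results of these data known. The text names all 10 members, list genes passing the threshold or with the 2 largest changes per list in the brain comparisons, the 10 genes most like the members, and Phf8. The numbers paired STR with PFC samples (r = 0.166 to 0.415 in all 6 pairs, over all genes) and KO with WT NPC samples (r = 0.520 to 0.692 in all 3 pairs), but not KO with WT in STR or PFC; ESC had 2 pairs. The labels do not state where the pairing comes from.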

Additional observations from a re-analysis of the deposited data

How the results depend on the processing

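Counts of members called between KO and WT stayed at 0 under every alternative run in NPC, STR and PFC and for the interaction; in ESC the replicate block called 2 members. Calls over all genes moved more: 0 to 513 in ESC, 0 to 5 in NPC, 0 to 104 in STR, 2 to 379 in PFC and 1 to 19 for the interaction. In NPC, where the numbers pair KO with WT, the block called 3 genes, 0 of them members. PFC against STR gave 2 members without a filter on low counts and 2 to 8 leaving out 1 sample. With 5 samples left, members correlated with Fos numbered 0 to 3 in NPC and 1 to 6 in PFC, with 1 without WT 2, WT 3 or KO 3. The count of members in the top 5% of spread was a measure added after seeing the data. So were the member pairs with r over 0.8 and the correlation of same-numbered STR and PFC samples. In ESC, members in the top 5% of spread numbered 1 under the replicate block and 1 to 2 without 1 sample. In NPC they numbered 1 and 0 to 1. Pairs with r over 0.8 ranged from 8 to 23 in NPC. The causes were not tested.

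Leaving out 1 sample turned the sign of these KO over WT log2 fold changes. In ESC the ranges were -1.40 to 1.31 for Egr1 (-0.020 under the replicate block), -1.56 to 0.88 for Egr2, -0.049 to 0.43 for Dusp1 and -0.41 to 0.043 for Fos, in NPC -0.76 to 0.028 for Arc, and in STR -0.95 to 0.032 for Npas4. In PFC all members turned: Fos -0.37 to 0.21, Fosb -0.80 to 0.018, Junb -0.32 to 0.14, Arc -0.52 to 0.14, Egr1 -0.17 to 0.11, Egr2 -0.41 to 0.27, Egr4 -0.22 to 0.070, Npas4 -0.11 to 0.57, Nr4a1 -0.35 to 0.11 and Dusp1 -0.36 to 0.21. Egr2 between NPC and ESC ranged from -0.29 to 0.48. The block changed no other KO call of a member. With 5 to 28 reads per culture sample, Npas4 was too shallow there for small differences to be detectable.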
